A study of Mus musculus with 4 samples.

Results

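Removal of the 5′ cap commits an mRNA to degradation from its 5′ end. The hydrolase Dcp2 cuts the cap with its cofactor Dcp1, helped by enhancer proteins that gather with it in cytoplasmic granules called P-bodies, and the exonuclease Xrn1 then digests the exposed body of the message. This step usually follows shortening of the poly(A) tail by the CCR4-NOT complex, and the helicase Ddx6 binds the CCR4-NOT scaffold and so links the steps. The genes described here are 10 decapping and 5′ decay factors, chosen by name. They are Dcp2, Dcp1a, Dcp1b, Edc3, Edc4, Ddx6, Patl1, Eif4enif1, Xrn1 and Dcps, the last of which acts after 3′ to 5′ decay. They were found by symbol among the 23312 genes of the deposited tables, and all 10 were present in all 4 libraries.

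The libraries came from bone marrow cells of C57BL/6 mice sorted as B220+CD43+ pro-B cells, which are early B-lineage cells. One group was Cnot3 fl/fl RERTCre (2 libraries), in which Cnot3, a CCR4-NOT subunit, carried loxP-flanked alleles. The other was Cnot3 +/+ RERTCre (2 libraries), with wild-type alleles. Both groups carried RERTCre, a tamoxifen-inducible Cre recombinase, and every mouse was injected with tamoxifen (1 mg each on days 1, 2, 4 and 7) and analysed at day 10. The labels give neither the age of the mice, nor the exons flanked by loxP, nor the promoter that drives the recombinase. The series' design text calls the replicates individual mice.

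Values were FPKM, which scales fragments by transcript length and by how many mapped in the library. The tables held no counts, so the absolute depth was unknown, and the spacing of the lowest values gave relative depths between 0.746 and 1. Cnot3 itself had 39.0 and 40.3 FPKM in the Cnot3 fl/fl libraries, against 41.6 and 39.3 FPKM in the Cnot3 +/+ libraries, so its whole-gene level did not check the labels, and directions below are between libraries labelled with these genotypes. All 11 B-lineage markers examined were present, with a summed level of 797.3 to 851.5 FPKM in Cnot3 fl/fl and 993.5 to 1244 FPKM in Cnot3 +/+ libraries. The 7 markers of plasmacytoid dendritic cells summed to more, 5205 to 6293 FPKM in Cnot3 fl/fl and 6362 to 6396 FPKM in Cnot3 +/+ libraries. Classical dendritic markers (5 genes) summed to 377.5 to 410.1 FPKM in Cnot3 fl/fl, against 236.3 to 260.7 FPKM in Cnot3 +/+ libraries. Neutrophil and monocyte markers (8 genes) summed to 1192 to 1379 FPKM in Cnot3 fl/fl, against 878.7 to 1165 FPKM in Cnot3 +/+ libraries. T and NK markers (6 genes) summed to 552.3 to 596.8 FPKM in Cnot3 fl/fl, against 439.9 to 466.1 FPKM in Cnot3 +/+ libraries, and erythroid markers to 21.1 to 38.2 FPKM in Cnot3 fl/fl, against 27.7 to 61.7 FPKM in Cnot3 +/+ libraries. No marker of these lists was at 0 in all libraries. The part of these other cells in the values below was not tested. In such bulk samples fewer cells of a type and less RNA per cell cannot be told apart. Y-linked transcripts stood out in one library, Cnot3 +/+ replicate 1, with a sum of 58.0 FPKM over 4 genes against at most 0.027 FPKM in each other library. Xist, transcribed from the inactive X chromosome of females, was at 0.024 FPKM in that library and at 54.3 to 63.1 FPKM in the others. This is the pattern of a male mouse in that library and of females in the others, so sex was not balanced between the genotypes. The same library had the lowest relative depth, 0.746. The part of sex and depth in the values below was not tested.

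The promoters of the 3 members with the highest fold changes, Edc3, Edc4 and Dcps, are shown because these genes lay above their Cnot3 +/+ level by a similar amount. Each runs from 250 bases before to 50 after the annotated start and was taken from RefSeq (GRCm38.p6, whereas the expression files use mm9). Capitals mark CGGAAG or its reverse complement, which holds the GGAA core recognised by ETS-family transcription factors. They occur once in Edc3, once in Edc4 and nowhere in Dcps. Edc3 is at chr9:57708319-57708618 on the plus strand, Edc4 at chr8:105880631-105880930 on the plus strand and Dcps at chr9:35175938-35176237 on the minus strand.
Edc3: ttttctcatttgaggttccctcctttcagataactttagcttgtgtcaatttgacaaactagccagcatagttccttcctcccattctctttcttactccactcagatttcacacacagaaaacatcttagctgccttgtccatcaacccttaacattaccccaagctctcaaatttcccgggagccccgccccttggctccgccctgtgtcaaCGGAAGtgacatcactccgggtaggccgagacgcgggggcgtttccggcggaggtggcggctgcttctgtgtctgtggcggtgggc
Edc4: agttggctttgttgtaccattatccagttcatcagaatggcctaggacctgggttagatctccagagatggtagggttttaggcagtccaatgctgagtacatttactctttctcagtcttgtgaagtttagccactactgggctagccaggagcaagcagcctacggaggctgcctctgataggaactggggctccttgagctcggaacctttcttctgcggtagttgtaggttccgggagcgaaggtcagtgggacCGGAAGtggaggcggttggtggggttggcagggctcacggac
Dcps: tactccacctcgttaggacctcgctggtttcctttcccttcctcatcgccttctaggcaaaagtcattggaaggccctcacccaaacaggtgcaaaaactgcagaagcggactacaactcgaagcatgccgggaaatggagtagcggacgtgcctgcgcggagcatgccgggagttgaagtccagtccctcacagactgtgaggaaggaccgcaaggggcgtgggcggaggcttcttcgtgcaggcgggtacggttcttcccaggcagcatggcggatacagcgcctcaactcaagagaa
Promoters were given for 8 of the 10 members, all but Dcp2 and Ddx6, in 11 entries of which 4 belong to alternative starts of Eif4enif1. CGGAAG was found on either strand in 6 of these 11 entries (Dcp1a, Dcp1b, Edc3, Edc4 and 2 starts of Eif4enif1), and in 16.9% of all 32851 entries. The 2 Eif4enif1 windows with CGGAAG overlap and hold the same matches. The GC box GGGCGG was found in 8 of 11 entries, against 35.7% of all, and CCAAT in 4 of 11, against 37.4%. All 4 entries of Eif4enif1 are among those with GGGCGG. By gene, CGGAAG and GGGCGG were each found in 5 of the 8 members with a promoter. The backgrounds are shares of all entries, whatever the G+C content or level of the gene, and no background by gene was computed. TATAAA was in 0 of 11 entries, against 13.6% of all. In one entry, that of Patl1, a pair of matches shared bases. The G+C content of the 11 entries was 53.0% to 80.7%, and the median of all entries was 52.7%. These motifs were chosen after the sequences were seen, and a match describes letters, not binding.

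The 10 mRNAs spanned almost an order of magnitude in level per transcript length. Ddx6 was the most abundant, followed by Dcps, Eif4enif1, Edc4, Edc3, Patl1, Dcp1a, Xrn1, Dcp2 and Dcp1b. Averaged over the 4 libraries, Ddx6 was at 60.5 FPKM, above 87.0% of the 11017 genes tested, and Dcp1b was at 6.93 FPKM, above 29.3%. The cap hydrolase gene Dcp2 was thus among the scarcest, at 8.48 FPKM. The order of neighbours was the same in 4 of 4 libraries for 7 of the 9 neighbouring pairs. Xrn1 was above Dcp2, and Dcp2 above Dcp1b, in 3 of 4 libraries, and the ranges of both pairs overlapped. The ranges of Dcps and Eif4enif1 also overlapped across libraries, although Dcps was higher within each one. Replicates lay close together, with a median SD on the log2(FPKM + 1) scale of 0.042 in Cnot3 fl/fl and 0.030 in Cnot3 +/+ libraries over the members, against 0.077 and 0.098 over all genes tested. The genes tested reach down to a mean of 1 FPKM, whereas the members average 6.93 to 60.5 FPKM. No comparison at a matched level was made.

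**Figure D1:**
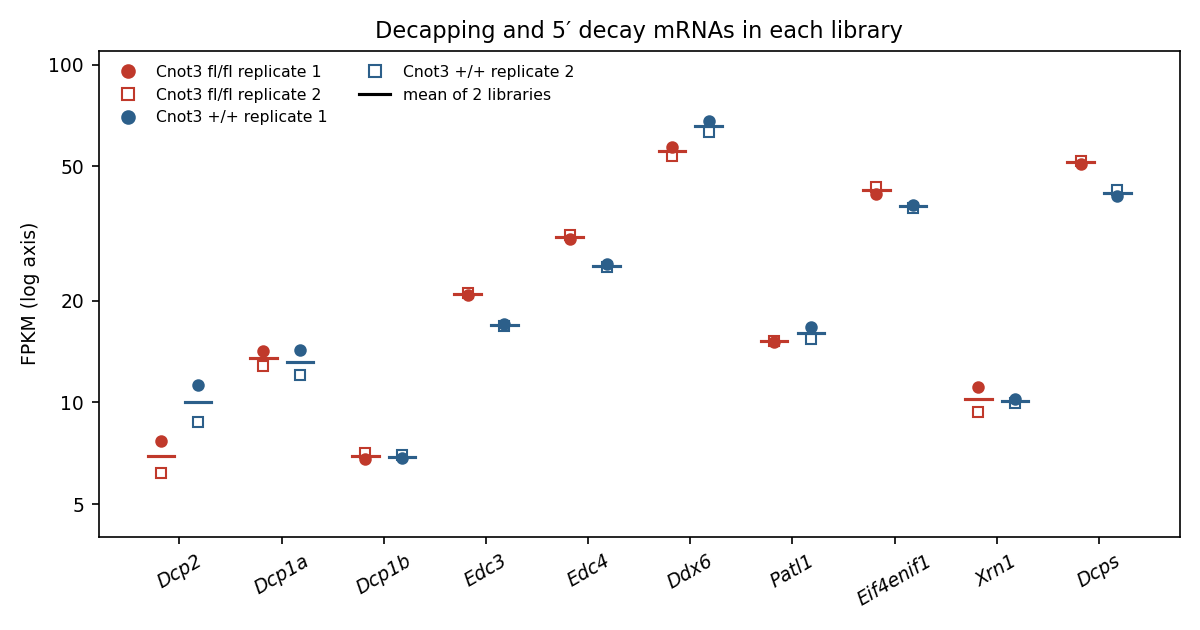
FPKM (log axis) of each member in each library, with Cnot3 fl/fl in red left of Cnot3 +/+ in blue, filled circles for replicate 1, open squares for replicate 2 and bars for the mean of 2 libraries. Edc3, Edc4, Eif4enif1 and Dcps have both Cnot3 fl/fl libraries above both Cnot3 +/+ libraries, Dcp2, Ddx6 and Patl1 have both below, and Dcp1a, Dcp1b and Xrn1 overlap.

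No member passed the test between genotypes. Among the 10, 0 had an adjusted p under 0.05 in limma, the linear-model test fitted to the 11017 genes whose mean reached 1 FPKM, where 9.49% of genes passed. At an unadjusted p under 0.05 there were 5 members, where 33.8% of all genes tested were past that line. Of the 5, 3 had higher values in Cnot3 fl/fl (background 18.5%) and 2 lower values (background 15.3%). The authors' deposited table marked 0 of the 10 as significant, against 6.64% of the same genes. The libraries of the genotypes did not overlap for 7 members, against 64.4% of all genes tested, so this share was near the background. Both Cnot3 fl/fl libraries were higher in 4 members (background 32.7%) and lower in 3 (background 31.7%). The median log2 fold change of the members was 0.025 and that of all genes -0.0090. Each log2 fold change given is a difference in log2(FPKM + 1), Cnot3 fl/fl minus Cnot3 +/+, and the fit rests on 2 residual degrees of freedom. For a single gene, an exact permutation test over these libraries can reach no p under 0.333.

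Dcp2, the catalytic subunit that hydrolyses the cap, had the log2 fold change farthest from 0, although Ddx6, Dcps and other more abundant members differed by more FPKM. It measured 7.68 and 6.19 FPKM in the Cnot3 fl/fl libraries, against 11.3 and 8.74 FPKM in the Cnot3 +/+ libraries. Both Cnot3 fl/fl values lay below both Cnot3 +/+ values, although the gap of 1.06 FPKM between the nearest libraries was smaller than the spread within Cnot3 +/+. Replicate 1 was above replicate 2 in both genotypes, and whether the replicate numbers pair the samples is unknown. The means were 6.93 ± 1.06 FPKM and 10.0 ± 1.8 FPKM (SD, n = 2 each). The log2 fold change was -0.47 (standard error 0.17, 95% interval -0.91 to -0.033, limma, unadjusted p = 0.040, adjusted p = 0.13). In the authors' deposited table Dcp2 had p = 0.0102 and q = 0.101, the lowest q of the 10. Of all genes tested, 7.88% had a lower fold change. The locus of Dcp2 in the files is chromosome 18 from 44540153 to 44584623 (mm9). With one library left out its fold change lay between -0.64 and -0.30.

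Dcp1a and Dcp1b encode the paralogous cofactors that bind and activate Dcp2, and neither differed beyond the replicate spread. Dcp1a measured 14.2 and 12.8 FPKM in the Cnot3 fl/fl libraries, against 14.3 and 12.1 FPKM in the Cnot3 +/+ libraries. Its replicates within a genotype differed by more than the genotypes did, with a log2 difference of 0.034 (95% interval -0.28 to 0.34). Dcp1b measured 6.80 and 7.09 FPKM in the Cnot3 fl/fl libraries, against 6.84 and 6.99 FPKM in the Cnot3 +/+ libraries. Its 4 values spanned 0.291 FPKM, yet the 95% interval of its log2 fold change, -0.25 to 0.26, leaves room for a difference of that size in either direction.

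Edc3 and Edc4 encode enhancers of decapping, a scaffold that binds Dcp2 and Ddx6 and a large scaffold that joins Dcp1 to Dcp2. Edc3 measured 20.8 and 21.0 FPKM in the Cnot3 fl/fl libraries, against 17.1 and 16.8 FPKM in the Cnot3 +/+ libraries. The genotypes were well apart for their spread, 20.9 ± 0.185 against 16.9 ± 0.147 FPKM (SD, n = 2 each), a fold of 1.23, yet the adjusted p was 0.077 (limma, log2 fold change 0.29, standard error 0.075). Edc4 measured 30.4 and 31.3 FPKM in the Cnot3 fl/fl libraries, against 25.6 and 25.2 FPKM in the Cnot3 +/+ libraries, a fold of 1.21 (log2 fold change 0.27, standard error 0.072, limma adjusted p = 0.080). Again both Cnot3 fl/fl libraries lay above both Cnot3 +/+ libraries. The authors' deposited table gave q = 0.448 for Edc3 and q = 0.470 for Edc4. Edc3 overlaps Clk3 on the opposite strand in the GENCODE M21 annotation. The log2 fold change of Clk3 was -0.14, opposite in sign to that of Edc3 (limma adjusted p = 0.37). In the files' mm9 locus column Edc3 spans chromosome 9 from 57556375 to 57597969 and Edc4 chromosome 8 from 108404850 to 108417107.

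Ddx6, Patl1 and Eif4enif1 encode proteins that hold translationally repressed mRNAs and pass them to decapping. Ddx6, a DEAD-box RNA helicase, measured 56.9 and 53.8 FPKM in the Cnot3 fl/fl libraries, against 68.0 and 63.3 FPKM in the Cnot3 +/+ libraries. Both Cnot3 fl/fl libraries were lower, at 55.4 ± 2.18 against 65.7 ± 3.35 FPKM (SD, n = 2 each), a fold of 0.843 (log2 fold change -0.24, standard error 0.081, limma adjusted p = 0.12). Patl1, a scaffold that bridges the Lsm1-7 ring and the decapping enzyme, measured 15.1 and 15.2 FPKM in the Cnot3 fl/fl libraries, against 16.7 and 15.4 FPKM in the Cnot3 +/+ libraries. Its libraries did not overlap only because Cnot3 +/+ replicate 2 lay 0.202 FPKM above the nearest Cnot3 fl/fl library, and its 95% interval was -0.30 to 0.15. Eif4enif1, which encodes the eIF4E transporter 4E-T that binds the cap-binding protein and Ddx6, measured 41.5 and 43.5 FPKM in the Cnot3 fl/fl libraries, against 38.4 and 37.7 FPKM in the Cnot3 +/+ libraries. Its fold was 1.12 (log2 fold change 0.15, 95% interval -0.038 to 0.34, limma adjusted p = 0.22). Eif4enif1 overlaps Drg1 on the opposite strand, whose own log2 fold change was 0.20 (limma adjusted p = 0.20).

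Xrn1, the cytoplasmic 5′ to 3′ exonuclease, measured 11.1 and 9.39 FPKM in the Cnot3 fl/fl libraries, against 10.2 and 9.96 FPKM in the Cnot3 +/+ libraries. Both Cnot3 +/+ values lay inside the Cnot3 fl/fl range, and the log2 fold change was 0.016 (95% interval -0.28 to 0.31). Dcps encodes the scavenger enzyme that hydrolyses the cap left on short fragments after 3′ to 5′ decay. It measured 50.7 and 52.0 FPKM in the Cnot3 fl/fl libraries, against 41.0 and 42.5 FPKM in the Cnot3 +/+ libraries. The genotypes were separated by more than the spread within either, 51.4 ± 0.982 against 41.7 ± 1.07 FPKM (SD, n = 2 each), a fold of 1.23. Its adjusted p was 0.070, the lowest of the 10 (limma, log2 fold change 0.29, standard error 0.072), whereas the authors' deposited table gave q = 0.761. A transcript on the opposite strand that overlaps Dcps, 4930581F22Rik, measured 21.2 and 21.6 FPKM in the Cnot3 fl/fl libraries, against 13.8 and 12.8 FPKM in the Cnot3 +/+ libraries. It rose (log2 fold change 0.65, limma adjusted p = 0.036). No source used here says whether the authors' counting separated the strands, so the reads of these 2 genes may be mixed.

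**Figure D2:**
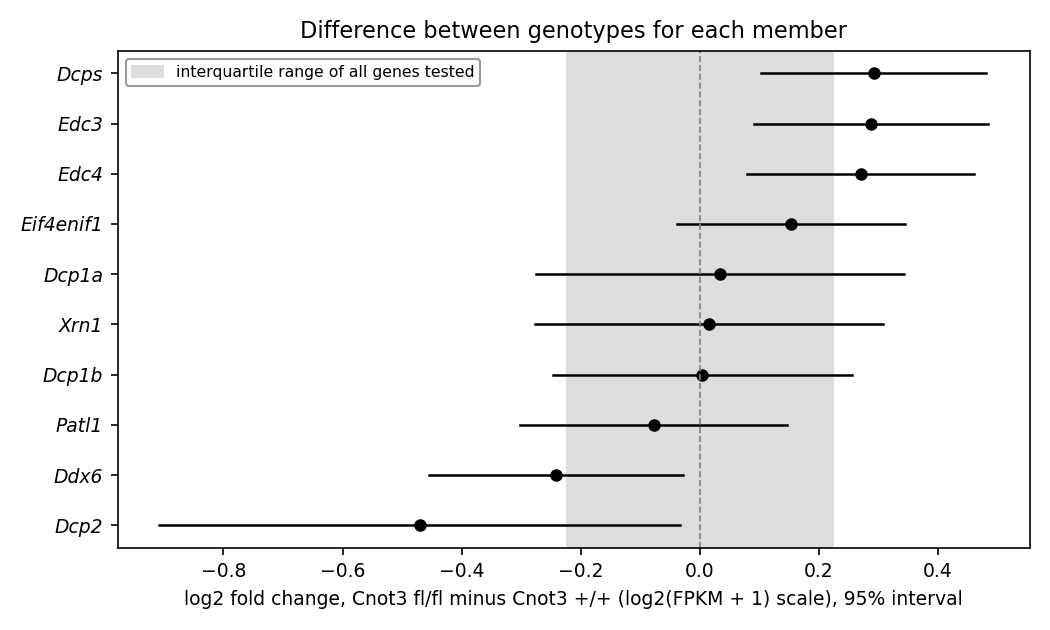
Log2 fold change of each member (points, Cnot3 fl/fl minus Cnot3 +/+ on the log2(FPKM + 1) scale) with its 95% interval from limma (lines), sorted by size. The shaded band is the interquartile range of all 11017 genes tested, -0.22 to 0.22, and Dcps, Edc3 and Edc4 lie above it while Dcp2 and Ddx6 lie below it.

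The position of the genes adds limits of a similar kind. In the files 4 of the 10 members, Dcps, Edc3, Xrn1 and Ddx6, lie on chromosome 9. The locus column joins neighbours for 3 members, so that Dcp1a shares an interval with Cacna1d and Chdh, Dcp1b with Cacna1c and 4931430N09Rik, and Dcps with St3gal4 and 4930581F22Rik. In GENCODE M21, 4 members overlap a protein-coding gene on the opposite strand (Dcp1a, Dcp1b, Edc3 and Eif4enif1) and Edc4 overlaps Nrn1l on the same strand. Cacna1c was at most at 0.033 FPKM and Nrn1l at most at 0.939 FPKM in any library. Cacna1d was between 6.28 and 7.24 FPKM, and its log2 fold change was -0.013.

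Ratios of FPKM between partners within a library do not depend on the scaling between libraries, and 7 were compared. On the log2(FPKM + 1) scale this holds only approximately, because of the added 1, the pseudocount. The log2 difference of Dcp1a to Dcp2 was 0.56 with a pseudocount of 0.1 and 0.36 with one of 5. The libraries of the genotypes did not overlap in 6 of 7 ratios, where 62.6% of all pairs of tested genes do not overlap in one direction or the other. The direction of a ratio follows from which partner is the denominator, and in 5 of these 6 that was Dcp2 or Ddx6, the members with the lowest fold changes. Every such ratio had an exact two-sided permutation p of 0.333, the smallest that 2 against 2 libraries can give. Ratios that share Dcp2 or Ddx6 are not independent of each other.

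As a ratio of FPKM, the cofactor Dcp1a relative to Dcp2 was 1.85 and 2.07 in Cnot3 fl/fl and 1.27 and 1.38 in Cnot3 +/+ replicates 1 and 2. On the log2(FPKM + 1) scale the log2 ratio was 0.875 ± 0.0979 against 0.370 ± 0.0743 (SD, n = 2 each), a difference of 0.50 that was larger than the spread within either genotype. Xrn1 relative to Dcp2 was 1.45 and 1.52 in Cnot3 fl/fl and 0.905 and 1.14 in Cnot3 +/+ libraries, a difference of 0.49. Dcps relative to Dcp2 was 6.60 and 8.41 in Cnot3 fl/fl and 3.63 and 4.86 in Cnot3 +/+ libraries. This difference of 0.76 on the log2 scale was the widest of the 7. With one library left out it lay between 0.57 and 0.96.

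Against Ddx6, Eif4enif1 was at a ratio of 0.729 and 0.807 in Cnot3 fl/fl and 0.565 and 0.596 in Cnot3 +/+ libraries, a log2 difference of 0.39. Patl1 was at 0.266 and 0.282 of Ddx6 in Cnot3 fl/fl and at 0.246 and 0.243 in Cnot3 +/+ libraries, a log2 difference of 0.16. The other pairs were the enhancer scaffolds Edc3 and Edc4, which are unrelated proteins, and the paralogues Dcp1b and Dcp1a. Edc3 relative to Edc4 was 0.684 and 0.673 in Cnot3 fl/fl and 0.665 and 0.669 in Cnot3 +/+ libraries, and the log2 difference was 0.018, with overlap at a pseudocount of 5. Dcp1b relative to Dcp1a was 0.480 and 0.553 in Cnot3 fl/fl and 0.478 and 0.579 in Cnot3 +/+ libraries, and it overlapped.

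**Figure D3:**
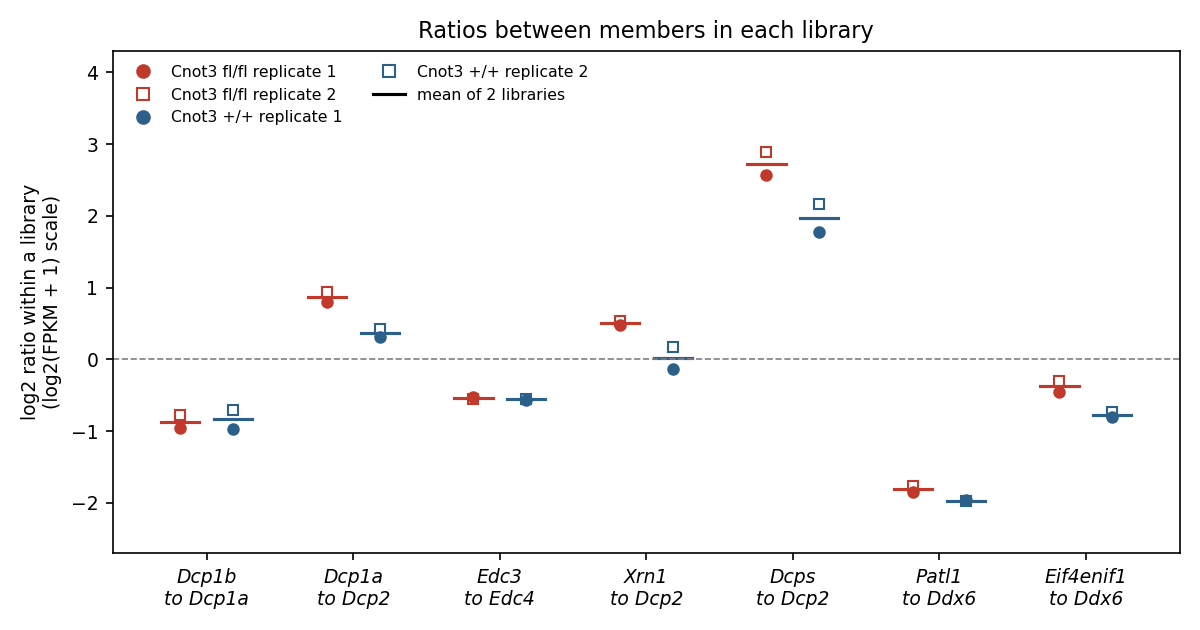
Log2 ratio of 7 pairs of members within each library (log2(FPKM + 1) scale), Cnot3 fl/fl in red left of Cnot3 +/+ in blue, with circles for replicate 1, squares for replicate 2 and bars for the mean of 2 libraries. The ratios to Dcp2 and to Ddx6 are higher in both Cnot3 fl/fl libraries than in both Cnot3 +/+ libraries, and the ratio of Dcp1b to Dcp1a overlaps.

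The members also differed in the make-up of their transcripts, which the selection by name did not use. In GENCODE M21 the longest protein-coding transcript ranged from 1445 bases (Dcps) to 10256 bases (Xrn1), and its 3′ UTR from 363 bases (Edc4) to 7240 bases (Dcp2). The G+C content was lowest in Xrn1, Dcp2 and Ddx6, at 41.9%, 42.7% and 43.4%. Of these, Dcp2 and Ddx6 had both Cnot3 fl/fl libraries lower, and Xrn1 overlapped. It was 50.2%, 51.6%, 52.8% and 55.5% in Eif4enif1, Edc3, Dcps and Edc4, the 4 members with both Cnot3 fl/fl libraries higher. Dcp1b, whose libraries overlapped, lay within that range at 52.5%. Over the 10 members the log2 fold change had a Pearson r of 0.79 and a Spearman rho of 0.72 with G+C content, and -0.71 and -0.64 with 3′ UTR length. Over the 10025 tested genes with such a transcript, 91.0% of all, these were 0.12 and 0.14 for G+C content and -0.10 and -0.15 for 3′ UTR length. For transcript length r and rho were -0.53 and -0.45 over the members, and -0.068 and -0.061 over all these genes. For coding length they were 0.22 and 0.079 over the members, and 0.025 and 0.11 over all. G+C content and 3′ UTR length were thus the properties with the strongest values over the members among those examined. These are descriptions across genes that come from the same 4 libraries, and genes are not independent replicates.

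All tested genes with a transcript were split into 5 bins of 2005 by G+C content. The bin with the lowest content, which holds Dcp2, Ddx6 and Xrn1, had a median log2 fold change of -0.088. The bin next to the highest, which holds Edc4, Dcps and Dcp1b, had 0.049. Dcp2 and Ddx6 lay below the median of their bin and Xrn1, at 0.016, above it, while Edc4 and Dcps lay above that of theirs and Dcp1b, at 0.0044, below it. After a correction for G+C content in each library, the log2 fold change was -0.41 for Dcp2, -0.19 for Ddx6, 0.24 for Dcps, 0.25 for Edc3 and 0.21 for Edc4. After one for 3′ UTR length, Edc3 passed the test (log2 fold change 0.38, limma adjusted p = 0.045), while the value of Dcp2 was -0.34 and that of Ddx6 -0.15. The same correction gave 0.088 for Eif4enif1, 0.20 for Edc4, 0.23 for Dcps, and 0.12 for both Dcp1a and Xrn1. The adjusted p of Edc3 lay between 0.045 and 0.32 over all alternatives run.

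**Figure D4:**
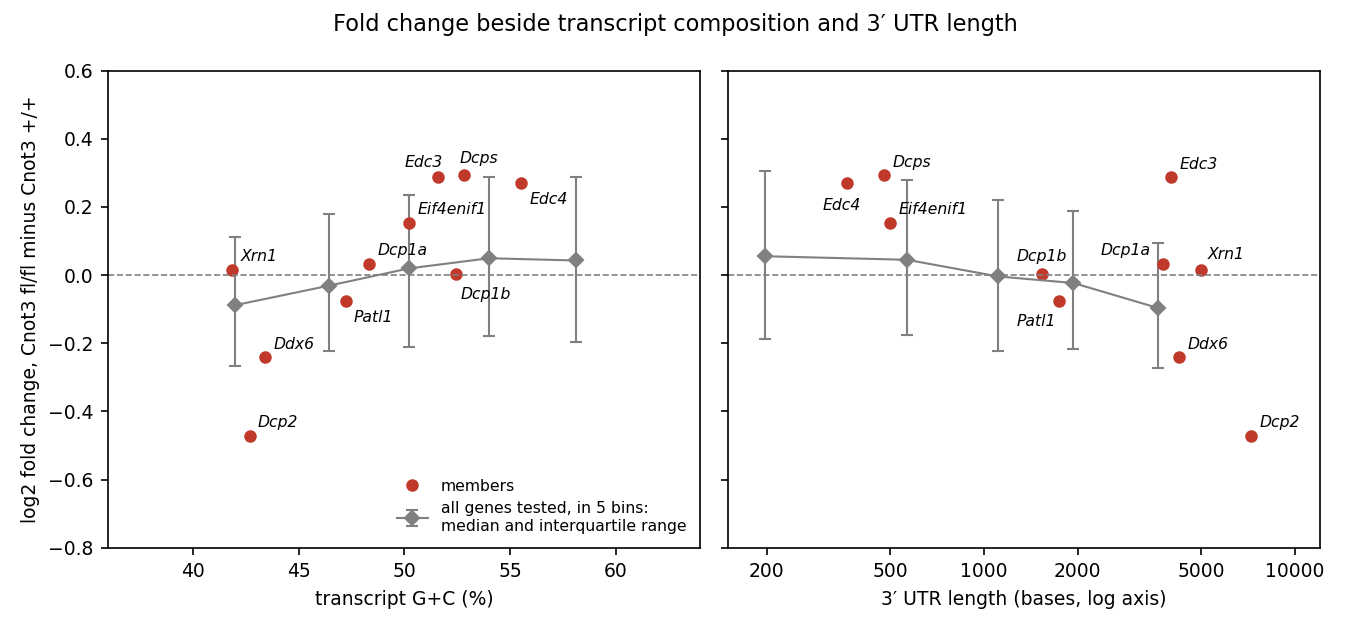
Log2 fold change (Cnot3 fl/fl minus Cnot3 +/+) of the members, red points, against the G+C content of the transcript (left, %) and the 3′ UTR length (right, bases, log axis). Grey diamonds and bars give the median and interquartile range of all tested genes in each of 5 bins of the property, whose medians run from -0.088 to 0.049 across G+C content and from 0.055 to -0.097 across 3′ UTR length.

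Other genes that act around the decapping step were taken from a list of 34 symbols, of which 32 were in the files and 29 reached the mean needed for testing. Among the 29, 1 rose, 2 fell and 26 did not pass (limma, adjusted p under 0.05), where 6.22% of all genes tested rose and 3.28% fell. The median log2 fold change of the 29 was -0.14. Both Cnot3 fl/fl libraries were lower in 14 (background 31.7%) and higher in 5 (background 32.7%). At an unadjusted limma p under 0.05, 10 were lower (background 15.3%) and 2 higher (background 18.5%). Xrn2, the nuclear relative of Xrn1, rose. It measured 81.1 and 78.1 FPKM in the Cnot3 fl/fl libraries, against 54.6 and 53.9 FPKM in the Cnot3 +/+ libraries, a fold of 1.47 (log2 fold change 0.54, standard error 0.072, limma adjusted p = 0.036). The gap between the genotypes was many times the spread within either. In the authors' deposited table Xrn2 had q = 0.0815, and without the variance trend its limma adjusted p was 0.052.

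Lsm5 and Lsm6 encode subunits of the Lsm1-7 ring, which binds shortened poly(A) tails and promotes decapping through Patl1, and which nuclei share in large part as the Lsm2-8 ring of the spliceosome. Lsm5 fell to 3.43 and 3.10 FPKM in Cnot3 fl/fl, against 11.9 and 12.0 FPKM in Cnot3 +/+ libraries (log2 fold change -1.60, limma adjusted p = 0.019). Lsm6 fell to 4.72 and 5.09 FPKM in Cnot3 fl/fl, against 8.25 and 8.59 FPKM in Cnot3 +/+ libraries (log2 fold change -0.67, limma adjusted p = 0.040). Of the 7 ring genes Lsm1 to Lsm7, 6 were tested, 2 fell (background 3.28%) and 4 did not pass, and Lsm7 stayed below 1 FPKM. Both Cnot3 fl/fl libraries were lower in 4 of the 6 (background 31.7%) and higher in 1 (background 32.7%). The coding lengths of the 6 were 243 to 417 bases. They fall in the shortest of 5 bins of tested genes by coding length, whose median log2 fold change was -0.12 (quartiles -0.34 and 0.12). The part of coding length in these values was not tested. Lsm2 and Lsm3 had both Cnot3 fl/fl libraries lower, with log2 fold changes of -0.41 and -0.39 (limma adjusted p = 0.12 each), whereas Lsm1 and Lsm4 had 0.14 and 0.062. Pan3, a subunit of the PAN2-PAN3 deadenylase, measured 21.1 and 23.7 FPKM in the Cnot3 fl/fl libraries, against 31.7 and 29.6 FPKM in the Cnot3 +/+ libraries (log2 fold change -0.44, limma adjusted p = 0.056). It passed in 3 alternatives, with a minimum mean of 5 FPKM (limma adjusted p = 0.049), quantile normalization (limma adjusted p = 0.043) and robust variance moderation (limma adjusted p = 0.044). With any one library left out, none of the 3 calls remained, at adjusted p between 0.080 and 0.22, although the log2 fold change stayed between 0.52 and 0.57 for Xrn2, -1.66 and -1.55 for Lsm5 and -0.72 and -0.63 for Lsm6.

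**Figure D5:**
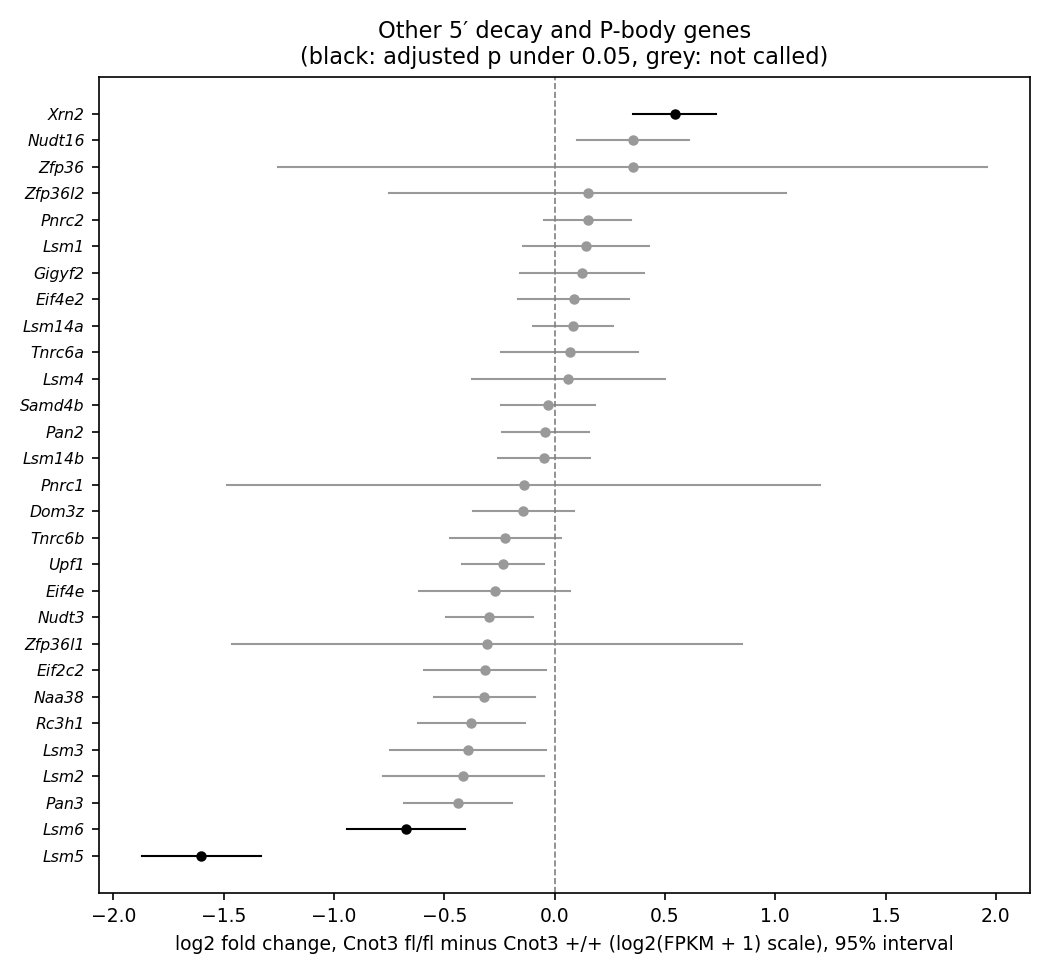
Log2 fold change (Cnot3 fl/fl minus Cnot3 +/+) with 95% interval for the 29 tested genes that act around decapping, sorted by size, black where the adjusted p was under 0.05 and grey elsewhere. Xrn2 stands at 0.54, Lsm6 at -0.67 and Lsm5 at -1.60, and the widest intervals belong to Zfp36, Zfp36l1, Zfp36l2 and Pnrc1.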

How the data were processed

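Libraries were prepared from total RNA with a stranded mRNA kit and 15 PCR cycles, per the labels' protocols. In the submitters' processing notes the tools include Cufflinks 2.2.1 and Cuffnorm 2.2.1, TopHat2 2.0.13 with Bowtie2 2.2.3.0 also being listed, and the build is mm9. Neither the role of each tool nor the annotation and strand setting is stated there. The deposited files hold an FPKM value for each gene and library, per the file headers, plus a table of the authors' own comparison with p-values and q-values. FPKM values are not counts, so no count test was run.

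Values were taken as log2(FPKM + 1). Genes averaging 1 FPKM or more, 11017 in all, entered the test, which used limma 3.58.1 under R 4.3.3 (eBayes with a mean-variance trend, two-sided, genotype as the only term, Benjamini-Hochberg adjustment over all of them, threshold 0.05). The procedure was checked on simulated data. The members, lists and tests were chosen with earlier results of these data known. Named genes were all members, Cnot3, and in the list of other genes every call and the 4 smallest p-values. Xist, further members and overlapping partners were named after their values were seen. Alternatives were other pseudocounts, filters, scalings and variance models, a replicate term, leaving out each library, and corrections for transcript G+C content and 3′ UTR length (lowess, span 0.3), the last 2 added after seeing the data. Transcripts are the longest protein-coding ones of GENCODE M21.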

Additional observations from a re-analysis of the deposited data

How the results depend on the processing

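No member passed under other pseudocounts, filters, scalings or variance models, with a replicate term or with any library left out, nor after correction for G+C content, but 1, Edc3, did after correction for 3′ UTR length. Of 150 recomputed fold changes of the members, 142 kept their direction and side of the threshold, 7 changed sign and 1 came to pass. The filters, variance models and replicate term leave a member's fold change itself unchanged, so under these only its adjusted p could move. All sign changes were in members near 0. With one library left out, Dcp1a ran from -0.081 to 0.15, Dcp1b from -0.022 to 0.031 and Xrn1 from -0.093 to 0.13, and Dcp1b was -0.041 after correction for G+C content; the cause was not tested. Over all genes, 1046 calls became 5 with no filter on low values and 311 without the variance trend, and 2 to 31 with one library left out. Among the other decay genes the 3 calls became 0 with no filter and 0 with any one library left out, 2 without the variance trend, where Xrn2 was lost, and 4 with a minimum mean of 5 FPKM, quantile normalization or robust moderation, where Pan3 was gained. They also numbered 4 after correction for transcript G+C content, 1 higher and 3 lower in Cnot3 fl/fl. Pan3 did not pass there (limma adjusted p = 0.0506), and the gene gained was not identified here. The within-library ratios that did not overlap numbered 5 to 7. No litter or batch is stated for the replicate numbers, so whether they pair the samples is unknown, and the main test treats them as unpaired. With the replicate block, 726 genes, 0 members and 3 other decay genes passed, and the deviations of same-numbered samples had r = 0.144. The limma adjusted p of Dcp2 was 0.064 with the block and 0.13 without it, and that of Dcps was 0.089 and 0.070. The 2 libraries per genotype and the unknown depth limit what differences could be detected.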
